A study of Mus musculus with 21 samples.

Results

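The genes described here are 33 genes of glycolysis and of the response to low oxygen, out of 41608 genes in the deposited count table of immortalized mouse embryonic fibroblasts (MEFs). They were chosen by name for what they are known to do, but with earlier results of these data known. They comprise 16 enzymes of the glycolytic chain, 7 genes that move glucose and lactate or set the fate of pyruvate, and 10 hypoxia genes outside glycolysis. All 33 were in the table and all 33 passed the filter on low counts. The series deals with heat shock factor 1 (HSF1), which turns on chaperone genes under stress, and with what its loss does to c-MYC, a transcription factor that drives growth.

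RNA was sequenced from 3 libraries in each of 4 groups: siHsf1 GCN5, siControl GCN5, siHsf1 LacZ and siControl LacZ. All 4 are Hsf1 WT MEFs that stably express a protein, either V5-tagged GCN5, a histone acetyltransferase encoded by Kat2a in the mouse, or LacZ, a bacterial enzyme that serves as its control. siHsf1 and siControl stand for 2 days with 10 nM siRNA against Hsf1 or control siRNA. A second assay, CUT&RUN, cuts out the DNA next to a protein with a nuclease tied to an antibody, and gave the c-MYC sites of Hsf1 CKO MEFs, which had 4-OHT over 7 days to delete Hsf1, and of Hsf1 WT MEFs, which had ethanol instead, from 2 samples of each genotype and 1 IgG control on a mixture of both. There is 1 line for each expressed protein, and the labels do not say whether it is a clone, nor whether the 3 RNA libraries of a group came from separate cultures, so p-values measure the spread between libraries. Samples with siRNA against Myc and their controls are not analysed here.

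Glycolysis splits glucose into pyruvate and yields ATP without oxygen; proliferating cultured fibroblasts run it at a high rate and export much of the pyruvate as lactate. When oxygen is short, prolyl hydroxylases no longer mark the alpha subunit of hypoxia-inducible factor (HIF) for destruction, and HIF raises the transcription of most glycolytic enzymes, of glucose and lactate carriers and of genes for blood vessel growth and mitochondrial turnover. c-MYC is also known to raise glycolytic genes, through E-boxes, and HSF1 has been linked to glucose metabolism in tumour cells.

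The sequence upstream of 8 of the genes is printed because these genes carry the main contrasts below: the lactate dehydrogenases Ldha and Ldhb and the enolases Eno1 and Eno2, whose members moved in opposite directions, the lactate carrier Slc16a1 and the enzyme Pgk1, which fell, Egln3, which fell most, and Hif1a, which encodes the alpha subunit of HIF. Each is the 250 bases before a RefSeq start, 5′ to 3′ on the gene's strand, from the RefSeq promoter table of GRCm38.p6. Capitals mark the E-box CACGTG and the HIF response element cores ACGTG and GCGTG, on either strand, so that CACGT and CACGC are the same cores read from the other strand, and ACGTG lies inside CACGTG. The positions are chr7:46845554-46845803 (plus strand) for Ldha, chr6:142507958-142508207 (minus) for Ldhb, chr3:104638414-104638663 (plus) for Slc16a1, chrX:106186850-106187099 (plus) for Pgk1, chr4:150236974-150237223 (plus) for Eno1, chr6:124769674-124769923 (minus) for Eno2, chr12:54203875-54204124 (minus) for Egln3 and chr12:73907617-73907866 (plus) for Hif1a.
Ldha: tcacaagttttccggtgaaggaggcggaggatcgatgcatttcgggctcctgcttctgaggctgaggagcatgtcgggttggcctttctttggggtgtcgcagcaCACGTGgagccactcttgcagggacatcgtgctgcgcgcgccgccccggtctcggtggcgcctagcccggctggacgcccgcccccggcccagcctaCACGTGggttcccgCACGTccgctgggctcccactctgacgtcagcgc
Ldhb: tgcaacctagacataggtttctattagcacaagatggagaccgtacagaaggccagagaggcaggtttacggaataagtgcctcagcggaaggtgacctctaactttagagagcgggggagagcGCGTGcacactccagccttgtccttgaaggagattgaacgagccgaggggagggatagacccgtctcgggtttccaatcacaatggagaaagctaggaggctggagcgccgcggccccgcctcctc
Slc16a1: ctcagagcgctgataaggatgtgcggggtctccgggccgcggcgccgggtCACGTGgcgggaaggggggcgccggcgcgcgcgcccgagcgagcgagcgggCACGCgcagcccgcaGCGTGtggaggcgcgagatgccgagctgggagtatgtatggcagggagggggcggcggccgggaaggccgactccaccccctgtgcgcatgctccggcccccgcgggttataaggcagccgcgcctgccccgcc
Pgk1: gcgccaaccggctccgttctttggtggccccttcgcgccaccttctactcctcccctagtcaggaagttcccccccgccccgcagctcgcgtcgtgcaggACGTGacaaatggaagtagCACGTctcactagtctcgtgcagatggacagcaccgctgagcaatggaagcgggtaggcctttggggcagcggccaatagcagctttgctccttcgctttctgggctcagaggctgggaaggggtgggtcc
Eno1: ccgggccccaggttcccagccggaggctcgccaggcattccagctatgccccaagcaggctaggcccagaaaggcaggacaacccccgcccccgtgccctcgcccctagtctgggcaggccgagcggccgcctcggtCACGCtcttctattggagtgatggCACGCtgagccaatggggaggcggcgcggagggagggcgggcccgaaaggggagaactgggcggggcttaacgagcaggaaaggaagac
Eno2: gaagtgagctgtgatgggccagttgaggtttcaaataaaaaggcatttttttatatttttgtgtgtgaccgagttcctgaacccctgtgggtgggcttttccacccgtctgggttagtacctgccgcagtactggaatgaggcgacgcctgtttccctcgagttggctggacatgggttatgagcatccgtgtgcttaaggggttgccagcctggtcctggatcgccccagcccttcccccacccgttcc
Egln3: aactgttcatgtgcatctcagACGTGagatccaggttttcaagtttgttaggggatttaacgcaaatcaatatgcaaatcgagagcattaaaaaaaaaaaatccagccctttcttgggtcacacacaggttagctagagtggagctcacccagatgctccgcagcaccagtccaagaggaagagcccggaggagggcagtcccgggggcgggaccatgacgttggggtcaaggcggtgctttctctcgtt
Hif1a: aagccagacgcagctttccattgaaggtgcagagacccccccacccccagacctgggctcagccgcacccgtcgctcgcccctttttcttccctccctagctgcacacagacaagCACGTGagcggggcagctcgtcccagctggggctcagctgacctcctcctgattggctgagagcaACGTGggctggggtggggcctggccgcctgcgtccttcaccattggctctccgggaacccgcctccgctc

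Ldha holds 2 E-boxes, 145 and 48 bases before the start as counted to their first base, and a further ACGTG core 34 bases before it. Slc16a1 holds 1 E-box and Hif1a 1, while Eno2 holds none of the marked motifs and Ldhb a single GCGTG. A RefSeq promoter was found for 32 of the 33 genes, Ndrg1 being the one without. The E-box stood upstream of at least 1 start in 6 of the 32 (18.8%), against 10.1% of 9232 tested genes counted the same way and 6.02% of all 32851 promoters of this length. The 6 are Bnip3, Hif1a, Ldha, Pfkfb3, Pfkm and Slc16a1. The core ACGTG stood upstream of 20 of the 32 (62.5%), against 25.6% of tested genes and 16.6% of all promoters. GCGTG stood upstream of 21 of the 32 (65.6%), against 51.4% of tested genes and 28.2% of all promoters. Genes known to respond to HIF were among those chosen, so the ACGTG share partly restates the choice. ACGTG was found before at least 1 start in all 9 hypoxia genes that have a promoter in the table: Hif1a, Egln1, Egln3, Vegfa, Bnip3, Ankrd37, P4ha1, P4ha2 and Car9. For Vegfa it stood only before the start at chr17:46025163, inside the gene. The Vegfa start at chr17:46032377, where the gene begins in the deposited gene table, had none. Paired units of the heat shock element were rarer: TTCNNGAA stood upstream of 4 of the 32 (12.5%), Eno2, P4ha2, Pfkl and Pfkm, against 6.96% of tested genes and 7.17% of all promoters, and GAANNTTC upstream of Pfkl alone (3.12%), against 5.82% and 6.69%. The shares of all promoters count each start singly, unlike those per gene. Counted singly over the 46 member promoters, the E-box stood in 13%, ACGTG in 50% and GCGTG in 54.3%. TTCNNGAA stood in 8.7% and GAANNTTC in 2.17% of them. All of these are matches of letters, not sites shown to be bound.

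Total gene counts were 3.69 to 4.27 M per library in the GCN5 line and 7.22 to 8.16 M in the LacZ line, so that depth and line coincide, and levels are given as CPM, counts scaled to a common library total. A gene with no counts could lie at up to 3 counts, that is 0.368 to 0.812 CPM by library (counting error only). Hsf1 stood at 67.9, 74.5 and 73.0 CPM in siHsf1 GCN5 libraries, against 137, 121 and 138 CPM in siControl GCN5 libraries, and at 57.6, 55.4 and 47.8 CPM in siHsf1 LacZ libraries, against 128, 128 and 134 CPM in siControl LacZ libraries. Kat2a, the mouse gene for GCN5, stood at 233 to 262 CPM in siControl GCN5 and 215 to 220 CPM in siControl LacZ libraries (adjusted p = 0.0506), and at 247, 252 and 244 CPM in siHsf1 GCN5 and 125, 117 and 130 CPM in siHsf1 LacZ libraries (log2 1.0 ± 0.06, adjusted p = 3.55e-12; 0.93 with spike-in scaling, adjusted p = 0.0667). Kat2a fell with knockdown in the LacZ line (-0.80 ± 0.06, adjusted p = 1.74e-10) and was not called in the GCN5 line (0.01 ± 0.06, adjusted p = 0.987), and these effects differed (0.81 ± 0.09, adjusted p = 2.31e-07; with spike-in scaling 1.13, adjusted p = 0.447). The sequence of the added GCN5 is not described, so its share of this row is unknown. Of the fibroblast markers, Col1a1, Col1a2, Vim and Fn1 each exceeded 1190 CPM in every library, while Thy1 was at 0 in 11 of 12 libraries and Postn stayed at or below 3.59 CPM. Many markers of other cell types were at or near 0, such as Adgre1, Itgam, Epcam, Myod1, Myog and Ckm at 0 in all 12 libraries. Others were expressed in every library, such as Krt19 (67.3 to 149 CPM), Krt18 (30.1 to 62.1 CPM), Cd14 (16.7 to 45.1 CPM) and Tubb3 (10.2 to 45.0 CPM). The 8 macrophage markers, mostly Cd14 and Cd68, summed to 51.5 to 59.4 CPM in siHsf1 LacZ and 26.6 to 27.3 CPM in siControl LacZ libraries, the 10 fibroblast markers to 9349 to 10783 CPM and 6526 to 7231 CPM, and the 6 epithelial markers, mostly Krt18 and Krt19, to 122 to 135 CPM and 173 to 212 CPM in the same groups. Their part in the results below was not tested. In bulk RNA, fewer cells of a kind and less RNA per cell cannot be told apart.

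Levels between genes are compared per length, as FPKM. The most abundant member in siControl LacZ libraries was Pkm, pyruvate kinase, which averaged 1096 ± 27 FPKM (SD, n = 3). It was followed by Tpi1 at 907 ± 62, Pgk1 at 855 ± 54 and Ldha at 854 ± 59 FPKM. The last 3 did not differ beyond their spread. Aldoa, Eno1, Pgam1 and Gpi1 followed between 174 and 310 FPKM, and the hexokinase and phosphofructokinase genes of the investment phase stood lower, at 34.4 ± 2.3 FPKM for Hk1 and 54.9 ± 1.1 FPKM for Pfkm. At the low end were Aldoc at 3.00 ± 0.78, Eno3 at 3.07 ± 1.28 and Car9 at 1.24 ± 0.61 FPKM, whose spreads overlap for Aldoc and Eno3. Gapdh was read at 11.5 ± 0.8 FPKM, far below its neighbours in the chain, with 45 to 525 counts per library, while 213 rows named as Gapdh pseudogenes held 366 to 1015 counts per library between them. Its row is therefore uncertain. Copies took under 4% of the summed counts of gene and copy for Pkm (0.828%, Gm6560), Ldha (0.453%), Pgk1 (0.701%), Pgam1 (1.74%) and Eno1 (3.30%, Eno1b).

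The first question was what knockdown of Hsf1 did in the LacZ line. Most of the glycolytic chain fell: 11 of the 16 enzymes were lower and 1 was higher (edgeR quasi-likelihood test with TMM scaling, Benjamini-Hochberg adjusted p under 0.05 over 12187 genes), with a class median log2 fold change of -0.36 against 0.02 for all tested genes. Of the 7 genes of glucose and lactate flow 5 fell and 2 rose (median -0.45), and of the 10 hypoxia genes 4 fell and 1 rose (median -0.23). In all, 20 of the 33 genes fell and 4 rose, whereas 19.5% of all tested genes were called lower and 21.1% higher. The 3 libraries of siHsf1 LacZ lay wholly below those of siControl LacZ for 19 of the 33 and wholly above for 4. The share of all tested genes that separated in this way was not counted, so the 19 and 4 have no background. When the libraries were scaled by 23 ERCC spike-in transcripts, whose share varied by up to 2.02-fold within a group, the median of all genes moved to -0.35, no member was called higher and 2, Egln3 and Ndrg1, were called lower, against 0.993% of all genes called higher and 6.03% lower. The labels state that siControl RNA received ERCC mix 1 and siHsf1 RNA mix 2, which differ by design outside subgroup B, the 23 transcripts used. The counts do not show 2 mixes: of the transcripts with at least 200 counts over the 6 libraries of a line, the 25 outside subgroup B had log2 ratios of siHsf1 to siControl that lay between -0.29 and 0.54 from the subgroup's median in the LacZ line, and the 18 in the GCN5 line lay between -0.28 and 0.26 from it, with medians of 0.00 and 0.01. With all 92 ERCC transcripts as the scale, 7 members were called lower and none higher, namely Eno1, Eno3, Ldha, Slc16a3, Pdk1, Egln3 and Ndrg1, against 7.96% of all genes lower and 1.03% higher. The members' distance from the all-gene median was close under both scalings. It was -0.38 with TMM and -0.36 with subgroup B for the enzymes, and -0.47 and -0.42 for the flow genes. A change of scale shifts all genes by nearly the same amount, so this closeness was largely given in advance.

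**Figure D1:**
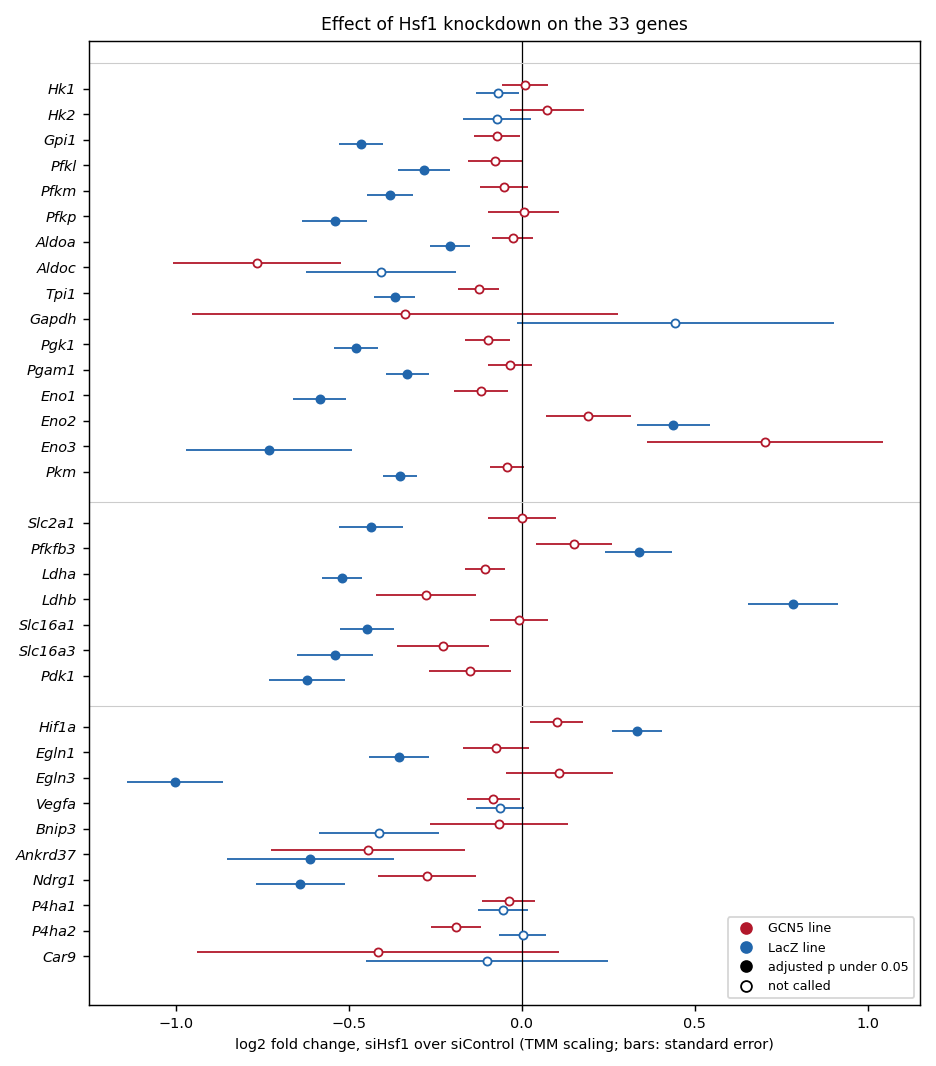
Log2 fold change of siHsf1 over siControl for each of the 33 genes, in the GCN5 line (red) and the LacZ line (blue), with standard errors, from the edgeR fit with TMM scaling. Filled points have an adjusted p under 0.05: 24 in the LacZ line and 0 in the GCN5 line.

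In the investment phase, which spends ATP, the entry enzymes did not pass the test: the hexokinases Hk1 (-0.07 ± 0.06, log2 fold change ± SE, adjusted p = 0.401) and Hk2 (-0.07 ± 0.10, adjusted p = 0.588). The next steps fell. Gpi1, glucose-6-phosphate isomerase, had 414, 343 and 349 CPM in siHsf1 LacZ libraries, against 506, 538 and 483 CPM in siControl LacZ libraries, without overlap (-0.47 ± 0.06, adjusted p = 2.26e-06). All 3 phosphofructokinase genes fell, Pfkp by 0.54, Pfkm by 0.38 and Pfkl by 0.28 on the log2 scale, with adjusted p of 0.00013, 5.86e-05 and 0.00445. Pfkp, the platelet type, stood at 144, 106 and 112 CPM in siHsf1 LacZ libraries, against 177, 171 and 178 CPM in siControl LacZ libraries. Of the aldolases, which split the 6-carbon sugar, Aldoa fell by 0.21 (adjusted p = 0.00538), and the far less abundant Aldoc did not pass (-0.41 ± 0.22, adjusted p = 0.14).

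Tpi1, triose-phosphate isomerase, which ends that phase, fell by 0.37 on the log2 scale (adjusted p = 1.72e-05). In the payoff phase, which returns ATP, phosphoglycerate mutase Pgam1 fell by 0.33 and pyruvate kinase Pkm by 0.35 (adjusted p = 0.000141 and 3.05e-06). Pgk1, phosphoglycerate kinase, had 1235, 1017 and 1154 CPM in siHsf1 LacZ libraries, against 1565, 1689 and 1498 CPM in siControl LacZ libraries (-0.48 ± 0.06, adjusted p = 1.58e-06). Every siHsf1 library lay below every siControl library for these 4. Gapdh had 20.4, 61.7 and 15.2 CPM in siHsf1 LacZ libraries, against 22.5, 23.6 and 25.9 CPM in siControl LacZ libraries, and was not called (0.44 ± 0.46, adjusted p = 0.488). Its highest value comes from siHsf1 LacZ replicate 2 alone; without that library the estimate was -0.44 with an adjusted p of 0.02.

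The enolases, which make phosphoenolpyruvate, split. Eno1, the ubiquitous form, had 768, 643 and 719 CPM in siHsf1 LacZ libraries, against 983, 1103 and 1109 CPM in siControl LacZ libraries, a fall of 0.59 ± 0.08 on the log2 scale (adjusted p = 4.41e-06). Eno2, the form known from neurons, had 39.4, 41.5 and 38.5 CPM in siHsf1 LacZ libraries, against 27.0, 27.5 and 33.5 CPM in siControl LacZ libraries, a rise of 0.44 ± 0.11 (adjusted p = 0.00192), and it kept a positive sign with spike-in scaling (0.07). The groups did not overlap for either gene. Of the neuron and astrocyte markers, Rbfox3 and Snap25 were at 0 in 11 and 10 of 12 libraries. The 6 markers summed to 27.8 to 33.3 CPM in siHsf1 LacZ and 28.9 to 30.9 CPM in siControl LacZ libraries. Most of that sum came from Tubb3 and Slc1a3, which ran from 10.2 to 45.0 and from 13.0 to 20.8 CPM over the 12 libraries. Eno3, the form known from muscle, had 8.95, 9.29 and 7.07 CPM in siHsf1 LacZ libraries, against 8.65, 20.2 and 13.1 CPM in siControl LacZ libraries. It was called lower (-0.73 ± 0.24, adjusted p = 0.0198) although the groups overlapped, and without siControl LacZ replicate 2 it was not called (-0.37, adjusted p = 0.204), nor without siHsf1 LacZ replicate 3 (-0.62, adjusted p = 0.0861).

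Among the genes of glucose and lactate flow, the carriers fell together. Slc2a1, the glucose transporter GLUT1, had 137, 94.0 and 112 CPM in siHsf1 LacZ libraries, against 159, 154 and 150 CPM in siControl LacZ libraries (-0.44 ± 0.09, adjusted p = 0.000796). The lactate carriers Slc16a1 (MCT1) and Slc16a3 (MCT4) fell by 0.45 and 0.54 on the log2 scale (adjusted p = 5.78e-05 and 0.000315). Pdk1, the kinase that shuts off pyruvate dehydrogenase and so keeps pyruvate from the mitochondrion, had 97.8, 64.9 and 77.3 CPM in siHsf1 LacZ libraries, against 120, 131 and 117 CPM in siControl LacZ libraries (-0.62 ± 0.11, adjusted p = 0.000235). None of these 4 overlapped between the groups.

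The lactate dehydrogenases moved apart. Ldha, the subunit that favours lactate formation, had 1219, 1095 and 1187 CPM in siHsf1 LacZ libraries, against 1619, 1803 and 1598 CPM in siControl LacZ libraries (-0.52 ± 0.06, adjusted p = 1.02e-07). Ldhb, the heart-type subunit, had 22.4, 18.0 and 19.0 CPM in siHsf1 LacZ libraries, against 10.4, 11.4 and 12.6 CPM in siControl LacZ libraries (0.78 ± 0.13, adjusted p = 2.77e-05). Ldhb remained above 0 with spike-in scaling (0.46), where it was not called (adjusted p = 0.408). Pfkfb3, which makes the activator of phosphofructokinase, had 65.1, 54.6 and 55.7 CPM in siHsf1 LacZ libraries, against 48.3, 40.0 and 50.3 CPM in siControl LacZ libraries, and was called higher (0.34 ± 0.10, adjusted p = 0.00734) with TMM scaling, while spike-in scaling turned its sign (-0.02); without siHsf1 LacZ replicate 1 its adjusted p was 0.0622.

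The prolyl hydroxylases both fell. Egln3 (PHD3), with the largest fall of the 10 hypoxia genes, had 16.9, 11.1 and 12.8 CPM in siHsf1 LacZ libraries, against 25.5, 27.5 and 28.3 CPM in siControl LacZ libraries, a 0.499-fold level (log2 -1.0 ± 0.14, adjusted p = 2.65e-06; -1.31 with spike-in scaling, adjusted p = 0.00507). Egln1 (PHD2) fell by 0.36 (adjusted p = 0.00244). Hif1a itself had 297, 240 and 289 CPM in siHsf1 LacZ libraries, against 224, 207 and 224 CPM in siControl LacZ libraries, and was called higher with TMM scaling (0.33 ± 0.07, adjusted p = 0.000619), but spike-in scaling turned its sign (-0.02). HIF is known to be set mainly through the stability of its protein, which was not measured here.

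Of the other hypoxia genes, Ndrg1, a stress-responsive gene, had 191, 139 and 142 CPM in siHsf1 LacZ libraries, against 247, 253 and 235 CPM in siControl LacZ libraries (-0.64 ± 0.13, adjusted p = 0.00217; -0.95 with spike-in scaling, adjusted p = 0.0461). Ankrd37, a HIF target with low counts, was called lower (-0.61 ± 0.24, adjusted p = 0.0465) at 6.20, 4.70 and 4.27 CPM in siHsf1 LacZ libraries, against 6.31, 9.97 and 6.80 CPM in siControl LacZ libraries, and lost the call without siHsf1 LacZ replicate 2 or 3 or siControl LacZ replicate 2 (adjusted p = 0.121, 0.162 and 0.27). Bnip3, a mitophagy receptor, had 123, 75.6 and 93.3 CPM in siHsf1 LacZ libraries, against 129, 141 and 118 CPM in siControl LacZ libraries; it was not called (-0.41 ± 0.17, adjusted p = 0.0871) but was without siHsf1 LacZ replicate 1 (-0.61, adjusted p = 0.00125). Vegfa, the vessel growth factor, the collagen prolyl hydroxylase subunits P4ha1 and P4ha2, and the carbonic anhydrase Car9 did not pass, with log2 fold changes between -0.10 and 0.00 and adjusted p of 0.497 to 0.988.

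**Figure D2:**
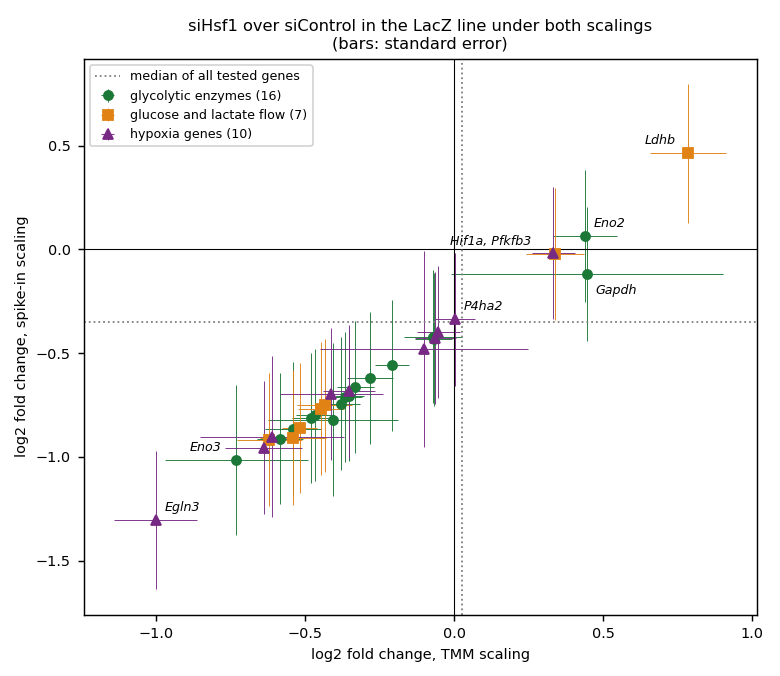
Log2 fold change of siHsf1 over siControl in the LacZ line for the 33 genes with TMM scaling (x axis) and with spike-in scaling (y axis), with standard errors, by role. The dotted lines give the median of all tested genes, 0.02 and -0.35, and Egln3 is lowest and Ldhb highest on both axes.

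The rest of the pathway moved less evenly. Of 34 other tested genes of glucose metabolism 11 fell and 3 rose, with a median of -0.05, beside 19.5% of all tested genes lower and 21.1% higher. The 3 that rose were Pdk4 (0.69), a pyruvate dehydrogenase kinase, Galm (0.66), the galactose mutarotase, and Pfkfb2 (0.36), and those with the smallest p among the 11 were Gbe1 (-0.66), the glycogen branching enzyme, Tigar (-0.61), a fructose-2,6-bisphosphatase, and Pgam5 (-0.36), a mitochondrial phosphatase. Of 34 other tested hypoxia genes 11 fell and 10 rose, with a median of 0.04. Dusp1 (1.70), a MAP kinase phosphatase, Plin2 (0.65), a lipid droplet protein, and Bhlhe40 (0.64), a transcriptional repressor, rose, while Fam162a (-0.73) and Mxi1 (-0.76), a MAX partner that opposes c-MYC, fell. Spike-in scaling turned the sign of Pfkfb2 (-0.01) alone among these 11 named genes, and Pfkfb2 also lost its call without any of 4 of the 6 libraries (adjusted p = 0.0515 to 0.0821). With spike-in scaling 2 of the 34 glucose genes were called lower and 0 higher, and 5 of the 34 hypoxia genes lower and 1 higher. Of all tested genes 6.03% were called lower and 0.993% higher with that scaling, so the share of lower glucose genes was near that of all genes. Myc itself fell to 99.4, 89.4 and 88.1 CPM in siHsf1 LacZ libraries, against 130, 142 and 147 CPM in siControl LacZ libraries (-0.60 ± 0.08, adjusted p = 7.17e-07).

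The same knockdown was then read in the GCN5 line. None of the 33 genes passed the test there, by edgeR with TMM or spike-in scaling or by DESeq2, and 3, 0 and 3 of them had an unadjusted p under 0.05. Over all genes the background was as thin, with 0.0656% called higher and 0.0985% lower with TMM scaling and 0.0328% and 0.00821% with spike-in scaling. Medians were -0.05 for the enzymes, -0.11 for the flow genes and -0.08 for the hypoxia genes, against -0.00 for all tested genes. Hsf1 itself fell by 0.88 ± 0.08 on the log2 scale in this line (adjusted p = 8.19e-07; with spike-in scaling -0.93, adjusted p = 1), against 1.28 ± 0.08 in the LacZ line, and these 2 falls differed with TMM scaling (0.41 ± 0.11, adjusted p = 0.0106) but not past the threshold with spike-in scaling (0.72 ± 0.45, adjusted p = 0.757). Myc stood at 158, 144 and 139 CPM in siHsf1 GCN5 libraries, against 129, 108 and 125 CPM in siControl GCN5 libraries, without overlap, and was not called (0.28 ± 0.08, adjusted p = 0.235). Ldha stood at 1217, 1239 and 1219 CPM in siHsf1 GCN5 libraries, against 1236, 1360 and 1362 CPM in siControl GCN5 libraries (-0.11 ± 0.06, adjusted p = 0.551). Egln3 stood at 22.3, 21.7 and 22.2 CPM in siHsf1 GCN5 libraries, against 19.2, 24.9 and 17.4 CPM in siControl GCN5 libraries (0.11 ± 0.16, adjusted p = 0.856). The groups overlapped for both. Of the 34 other glucose genes and the 34 other hypoxia genes none was called by edgeR with TMM scaling, with 5 of each at an unadjusted p under 0.05.

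**Figure D3:**
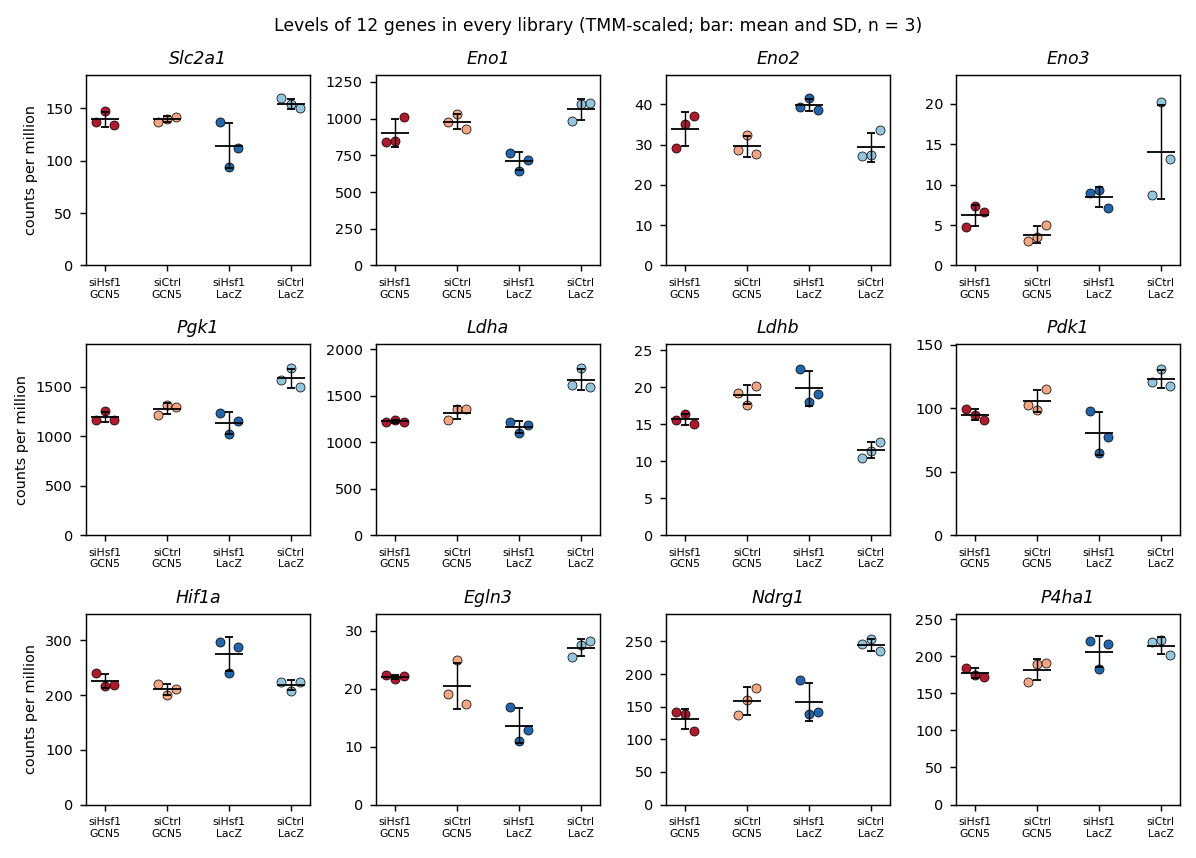
TMM-scaled CPM of 12 of the genes in every library of the 4 groups, with mean and SD (n = 3); each panel has its own axis from 0. The 3 siHsf1 LacZ libraries stand lowest for Egln3 and the 3 siControl LacZ libraries lowest for Ldhb, and siHsf1 GCN5 and siControl GCN5 libraries overlap in every panel but that of Ldhb.

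Whether the knockdown acted differently in the 2 lines was tested as the difference of its effects, the effect in GCN5 minus that in LacZ. It was called for 15 of the 33 genes, 14 positive and 1 negative, against 11.0% of all genes called in each direction with TMM scaling; with spike-in scaling it was called by edgeR for none of the 33 (2 at an unadjusted p under 0.05), against 0.172% higher and 0.222% lower. DESeq2 also called 14 positive and 1 negative. By role 9 of 16 enzymes, 4 of 7 flow genes and 1 of 10 hypoxia genes were positive. Eno3 (1.43 ± 0.42) and Egln3 (1.11 ± 0.21) had the largest positive differences (adjusted p = 0.0177 and 0.000344), and Ldhb (-1.06 ± 0.19, adjusted p = 0.000249) was the negative one. The other 12 ran from 0.24 for Tpi1 to 0.55 for Pfkp. Several of these calls were lost when 1 library was left out. Pdk1 lost its call without any of 10 of the 12 libraries (adjusted p = 0.0571 to 0.147), Tpi1 without any of 6 (0.0558 to 0.123), Eno3 without any of 4 (0.0538 to 0.0636) and Slc2a1 without any of 4 (0.0542 to 0.0705), while Eno1 lost it without siControl LacZ replicate 2 (0.0523) and Pfkm without siControl GCN5 replicate 3 (0.0513). Of the other glucose genes 5 were positive and 1 negative, led by Dlat (0.41), a pyruvate dehydrogenase subunit, Pgam5 (0.38) and Gbe1 (0.55), with Galm (-0.59) the negative one; of the other hypoxia genes 8 were positive and 5 negative, with Arnt (0.44), the HIF beta subunit, and Tfrc (1.05), the transferrin receptor, on one side and Dusp1 (-1.87), Plin2 (-0.62) and Bhlhe40 (-0.86) on the other. Gbe1 lost its call without any of 7 of the 12 libraries (adjusted p = 0.062 to 0.101) and Galm without any of 6 (0.0583 to 0.087). The difference was also called for Myc (0.88 ± 0.11, adjusted p = 2.43e-06; with spike-in scaling 1.18, adjusted p = 0.39). Counts per library were lower in the GCN5 line than in the LacZ line, as given above, and their part in the difference was not tested.

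The GCN5 and LacZ lines were next compared without knockdown; these comparisons share libraries with those above. Under siControl 9 of the 33 genes were lower in the GCN5 line and 1 was higher, against 4.15% of all genes called lower and 5.46% higher with TMM scaling; with spike-in scaling, where the all-gene median moved from -0.00 to -0.40, 1 was lower and none higher, against 0.960% and 0.542%. The 9 were Pfkp, Aldoa, Tpi1, Pgk1, Eno3, Ldha, Slc16a3, Ndrg1 and P4ha1. Eno3 had 2.97, 3.52 and 4.97 CPM in siControl GCN5 libraries, against 8.65, 20.2 and 13.1 CPM in siControl LacZ libraries (-1.87 ± 0.30, adjusted p = 0.000256; -2.19 with spike-in scaling, adjusted p = 2.47e-05). It was the only member called with both scalings, and its groups did not overlap. Of the skeletal muscle markers, Myod1, Myog and Ckm were at 0 in all 12 libraries. The 6 markers, mostly Des, summed to 3.78 to 6.91 CPM in siControl GCN5 and 4.26 to 7.19 CPM in siControl LacZ libraries. Other marker sums differed between the lines without overlap: those of neurons and astrocytes were 55.0 to 61.5 CPM in siControl GCN5 and 28.9 to 30.9 CPM in siControl LacZ libraries, those of epithelium 120 to 141 CPM and 173 to 212 CPM, and those of fibroblasts 8101 to 8275 CPM and 6526 to 7231 CPM in the same groups. Their part in the results was not tested. Ldhb, the 1 higher gene, had 19.2, 17.6 and 20.2 CPM in siControl GCN5 libraries, against 10.4, 11.4 and 12.6 CPM in siControl LacZ libraries (0.72 ± 0.14, adjusted p = 0.000968).

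Slc16a3 fell to 21.8, 25.2 and 24.0 CPM in siControl GCN5 libraries, against 35.4, 35.3 and 35.0 CPM in siControl LacZ libraries (-0.57 ± 0.12, adjusted p = 0.00203), and Pfkp to 108, 134 and 126 CPM in siControl GCN5 libraries, against 177, 171 and 178 CPM in siControl LacZ libraries (-0.52 ± 0.10, adjusted p = 0.0016). Ndrg1 had 137, 161 and 179 CPM in siControl GCN5 libraries, against 247, 253 and 235 CPM in siControl LacZ libraries (-0.62 ± 0.13, adjusted p = 0.0131); it was not called without siControl LacZ replicate 2 or siControl GCN5 replicate 2 (adjusted p = 0.0686 and 0.0501). P4ha1 (-0.24, adjusted p = 0.0471) was the weakest call and lost it without any of 5 of the 6 libraries (adjusted p = 0.0582 to 0.268). Of the other glucose genes 4 were lower and 1 was higher, with Bsg (-0.45), the chaperone of the lactate carriers, Pdk4 (-0.67) and Pfkfb2 (-0.55) lower and G6pc3 (0.38), a glucose-6-phosphatase, higher; of the other hypoxia genes 11 were lower and 3 higher, with Rcor2 (-0.46), Adm (-1.10), which encodes adrenomedullin, and Fam162a (-0.43) lower and Ddit4 (0.82), an inhibitor of mTORC1, and Dusp1 (0.39) among the higher ones. Each list held 34 tested genes, so 11.8% of the glucose genes were lower and 2.94% higher, and 32.4% of the hypoxia genes lower and 8.82% higher. Of all tested genes 4.15% were called lower and 5.46% higher with TMM scaling. Spike-in scaling turned the signs of G6pc3 (-0.03) and Dusp1 (-0.01). Calls were lost without a single library for Pfkfb2 (3 of 6 libraries, adjusted p = 0.0553 to 0.13), G6pc3 (2 of 6, 0.0606 and 0.0923) and Adm (without siControl GCN5 replicate 1, 0.0534).

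Under siHsf1 8 of the 33 genes (24.2%) were higher in the GCN5 line than in the LacZ line and 6 (18.2%) lower with TMM scaling. Of all genes 22.2% were called higher and 22.6% lower, so the members' shares were near those of all genes. With spike-in scaling 1, Gapdh, was lower and none higher, against 3.62% and 1.82% of all genes. The 8 were the enzymes Gpi1, Pfkm, Pgam1, Eno1 and Pkm, the carriers Slc2a1 and Slc16a1, and Egln3. Pfkm had 215, 218 and 216 CPM in siHsf1 GCN5 libraries, against 158, 148 and 155 CPM in siHsf1 LacZ libraries (0.49 ± 0.07, adjusted p = 2.49e-06), and Egln3 was 1.63-fold as high (log2 0.71 ± 0.15, adjusted p = 0.000456). Myc was also higher (0.67 ± 0.08, adjusted p = 1.91e-07; with spike-in scaling 0.59, adjusted p = 0.382). The 6 lower ones were Aldoa, Ldhb, Hif1a, Vegfa, P4ha1 and P4ha2, with log2 differences between -0.34 and -0.15. Vegfa had 118, 113 and 107 CPM in siHsf1 GCN5 libraries, against 139, 137 and 122 CPM in siHsf1 LacZ libraries (-0.24 ± 0.07, adjusted p = 0.0112). The groups overlapped for Slc2a1, Hif1a and P4ha1 and for no other of the 14 called genes. Calls were lost without a single library for Aldoa (4 of 6 libraries, adjusted p = 0.0797 to 0.154), Ldhb (5 of 6, 0.0597 to 0.193), P4ha1 (4 of 6, 0.0898 to 0.0952), Slc2a1 (3 of 6, 0.0583 to 0.0976), Slc16a1 (2 of 6, 0.0953 and 0.155) and Vegfa (2 of 6, 0.0542 and 0.0782). Of the other glucose genes 13 were higher and 7 lower, with G6pc3 (0.65), Pdk3 (0.58) and Adpgk (0.54), an ADP-dependent glucokinase, higher and Pdk4 (-1.07), Bsg (-0.52) and Pfkfb2 (-0.70) lower; of the other hypoxia genes 7 were higher and 15 lower, with Arnt (0.37) and Ddit4 (0.82) higher and Dusp1 (-1.49), Plin2 (-0.89) and Kdm3a (-0.73), a histone demethylase, lower.

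Shares within a family of isozymes do not depend on the scaling of a library. In the LacZ line Ldhb made up 2.65%, 2.37% and 2.32% of lactate dehydrogenase FPKM in siHsf1 libraries, against 0.944%, 0.924% and 1.16% in siControl libraries. Eno2 made up 5.36%, 6.64% and 5.60% of enolase FPKM in siHsf1 LacZ libraries, against 2.96%, 2.67% and 3.23% in siControl LacZ libraries. Egln3 made up 13.0%, 10.8% and 11.4% of the FPKM of Egln1 and Egln3 in siHsf1 LacZ libraries, against 16.4%, 16.7% and 19.0% in siControl LacZ libraries. For each of these 3 the libraries did not overlap, and the exact two-sided permutation test gave p = 0.1, the smallest that 3 against 3 libraries allow. Shares of phosphofructokinase FPKM separated in the same way. Pfkl averaged 54.0% in siHsf1 LacZ and 51.8% in siControl LacZ libraries, and Pfkp 9.02% and 10.4% (exact p = 0.1 for both). The shares come from the same libraries as the fold changes above and are no second line of evidence.

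In the GCN5 line the knockdown left Ldhb at 1.86%, 1.92% and 1.79% in siHsf1 libraries, against 2.24%, 1.88% and 2.14% in siControl libraries, and Egln3 at 18.7%, 17.3% and 17.6% in siHsf1 libraries, against 17.3%, 17.3% and 13.6% in siControl libraries, with overlap for both. Eno2 was at 3.68%, 4.39% and 3.91% in siHsf1 GCN5 libraries, against 3.15%, 3.39% and 3.20% in siControl GCN5 libraries, without overlap (exact p = 0.1). Eno3 averaged 0.553% of enolase FPKM in siHsf1 GCN5 and 0.317% in siControl GCN5 libraries. Aldoc averaged 0.953% and 1.57% of aldolase FPKM in the same groups, and neither gene's shares overlapped (exact p = 0.1 for both). Between the lines under siControl, Pfkm held 51.0%, 44.5% and 40.5% of phosphofructokinase FPKM in GCN5 libraries, against 38.0%, 37.4% and 38.2% in LacZ libraries, and Slc16a3 averaged 17.2% ± 1.4 of the FPKM of both lactate carriers in GCN5 libraries, against 21.2% ± 0.56 in LacZ libraries (SD, n = 3 each). Neither overlapped (exact p = 0.1 for both). The hexokinases and the collagen prolyl hydroxylase subunits showed no such separation under knockdown in either line: Hk2 averaged 16.4% in siHsf1 LacZ and 16.5% in siControl LacZ libraries (exact p = 1).

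**Figure D4:**
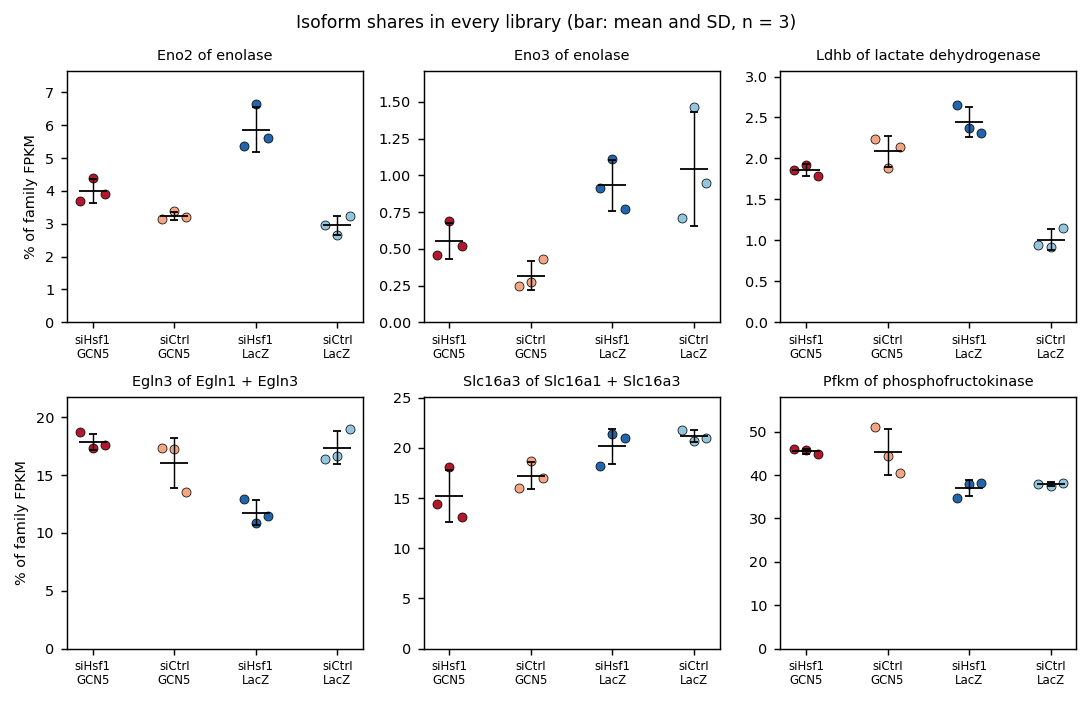
Share of a gene in the summed FPKM of its family, in percent, for every library of the 4 groups, with mean and SD (n = 3); each panel has its own axis from 0. In the LacZ line Ldhb and Eno2 shares are higher and the Egln3 share is lower in all 3 siHsf1 libraries than in all 3 siControl libraries.

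Binding of c-MYC at these genes was read from 1 peak list per genotype, which gives no replicate error and no test of the genotype. The lists differ greatly in size, with 6386 peaks over 11.54 Mb in Hsf1 CKO and 220037 peaks over 509.9 Mb in Hsf1 WT. In the CKO list 17 of the 33 genes (51.5%) had a peak within 1000 bases of the start in the deposited gene table, against 35.2% of 12153 tested genes. In the WT list 28 of the 33 (84.8%) had one, against 77.3% of tested genes. By role the CKO list held 10 of the 16 enzymes, 4 of the 7 flow genes and 3 of the 10 hypoxia genes, and the WT list 13, 7 and 8. With the starts of all RefSeq transcripts Hif1a joined the CKO list, Hif1a, Hk1 and Aldoc joined the WT list, and only Gpi1 and Egln3 had a peak in neither.

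The authors' total signal per peak, the coverage summed over the peak, ranks peaks within a list. In the CKO list the members' highest ranks were those of Eno3, Hk2 and Pkm, at percentiles 98.8, 96.1 and 94.7 of the list, and the lowest those of Pdk1 and Egln1, at 7.46 and 1.65. In the WT list Gapdh and Ndrg1 both stood at percentile 99.7, within peaks of 10906 and 10434 bases, and Eno3 at 99.5. The peak over the Ldha start covered both E-boxes in either list, spanning chr7:46844653-46847015 in CKO and chr7:46845022-46847839 in WT, and the point of maximal signal lay 227 and 244 bases before the start. At Ldhb a peak covered the start in the WT list alone, and Eno2 had none over the start in either list.

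Of the 17 members with a CKO peak 13 fell and 1, Pfkfb3, rose with Hsf1 knockdown in the LacZ line. Of the 16 without one 7 fell and 3 rose, Eno2, Hif1a and Ldhb. Hif1a was counted as without a peak by its start in the deposited gene table, but it has a CKO peak at a RefSeq start. Over all tested genes 27.9% of those with a CKO peak and 14.9% of those without one fell, and 19.2% and 22.2% rose (TMM scaling). Peaks and RNA came from different cells, deleted or treated with siRNA, and no test was made of this relation.

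**Figure D5:**
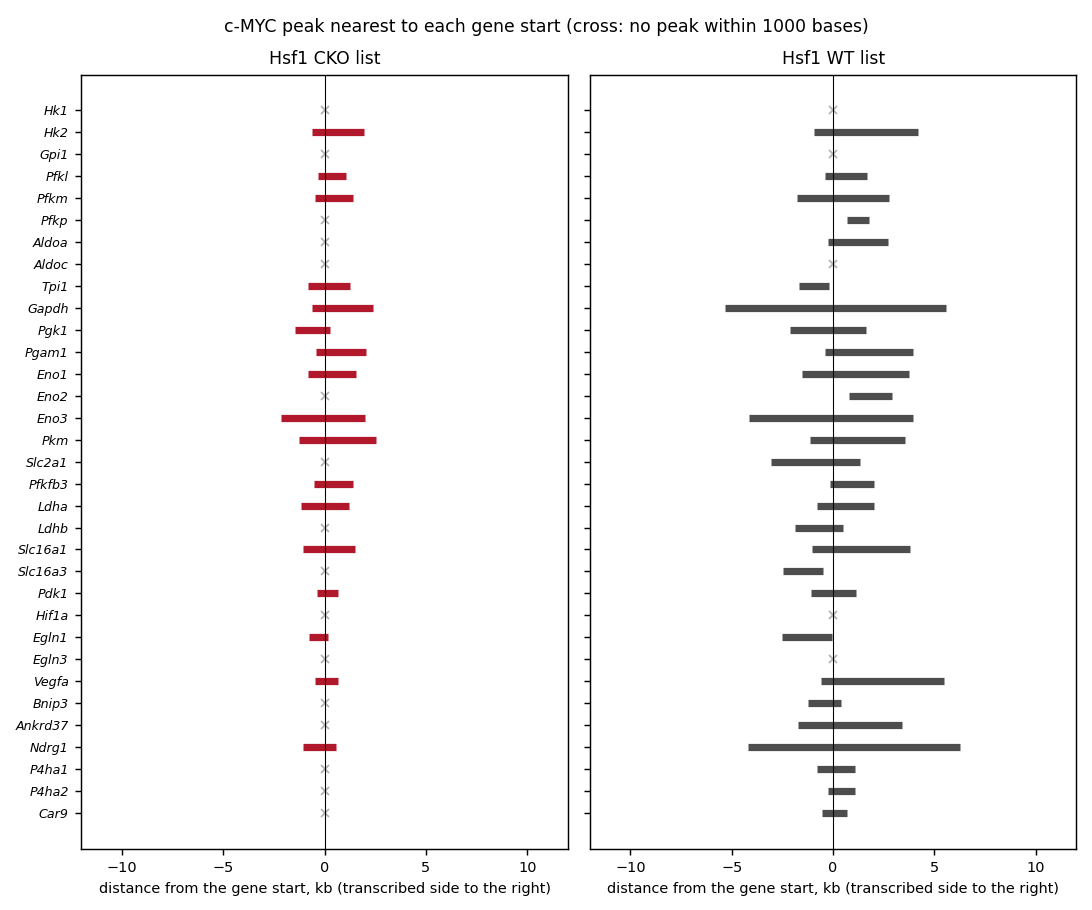
The c-MYC peak nearest to the start of each gene in the Hsf1 CKO list (left) and the Hsf1 WT list (right), as distance from the gene start in kilobases; a cross marks a gene with no peak within 1000 bases. There are 17 peaks on the left and 28 on the right, and Hk1, Gpi1, Aldoc, Hif1a and Egln3 have none on either side. At RefSeq starts, which are not drawn, Hif1a has a peak in both lists, and Hk1 and Aldoc in the WT list.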

How the data were processed

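RNA was measured in 12 libraries and c-MYC binding in 5 CUT&RUN libraries. The authors deposited a count table of whole numbers per gene and a table of FPKM, and per the submitters' processing notes used HISAT2, Bowtie2, SEACR and DESeq2 on GRCm38 or mm10. The sources used here name no counting program and no versions. The deposited peak lists give each peak's signal, summed and maximal, 1 list per genotype, and whether replicates were pooled is not stated. The table's 92 ERCC transcripts were kept out of the tests.

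Tests on counts used edgeR 4.0.16 (R 4.3.3): a robust quasi-likelihood fit with a mean for each of the 4 groups (8 residual degrees of freedom), after filterByExpr with a minimum count of 10, which left 12187 genes. Calls are two-sided, with a Benjamini-Hochberg adjusted p under 0.05 over all of these. TMM scaling, which takes most genes as unchanged, was the main one, because the share of spike-in varied between libraries of a group. Scaling by the 23 ERCC transcripts of subgroup B, which by design are equal in both mixes, stands beside it, and scaling by all 92 was an alternative. Whether the spike-in counts show 2 mixes was checked after seeing the data. The common biological coefficient of variation was 0.089 with TMM and 0.274 with spike-in scaling. DESeq2 1.42.0, other filters and scalings, a replicate block with TMM scaling and fits without each library were alternatives. The fit was tested on simulated data. Fold changes carry standard errors (SE) and means the standard deviation (SD).

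The genes, lists and tests were chosen with earlier results of these data known, and all lists and families of isozymes were set by gene name. Members are all accounted for in each comparison; of the other pathway genes, up to 3 called genes per direction and list with the smallest p were named, less 1 gene that is not reported here. Peaks were matched to a start by an overlap of at least 1 base with the window around it. Promoters came from the RefSeq table of GRCm38.p6. Figures were drawn with matplotlib 3.10.9 in Python 3.11.15.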

Additional observations from a re-analysis of the deposited data

Results flagged for a closer look

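The effect of Hsf1 knockdown differed between the GCN5 and LacZ lines for 15 of the 33 genes in the test of the difference itself (edgeR with TMM scaling, effect in GCN5 minus effect in LacZ, log2). Among the enzymes the differences were 1.43 for Eno3, 0.55 for Pfkp, 0.47 for Eno1, 0.39 for Gpi1, 0.38 for Pgk1, 0.33 for Pfkm, 0.31 for Pkm, 0.30 for Pgam1 and 0.24 for Tpi1. Among the genes of glucose and lactate flow they were 0.47 for Pdk1, 0.44 for Slc16a1, 0.44 for Slc2a1, 0.41 for Ldha and -1.06 for Ldhb, and among the hypoxia genes 1.11 for Egln3. With spike-in scaling none of the 15 was called. That scaling moved the median difference of all tested genes from -0.02 to 0.32. The 14 positive differences could therefore hardly turn, and they stayed positive. That of Ldhb stayed negative (-0.77). The part of the lower depth of the GCN5 line and of the fall of Hsf1 there, which was smaller with TMM scaling (0.41, adjusted p = 0.0106) and not called different with spike-in scaling (0.72, adjusted p = 0.757), was not tested.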

How the results depend on the processing

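The counts of members called differed greatly with the scaling. The spike-in fits had no replicate block, so the part of the replicate numbers in the lost calls was not tested. With the 23 ERCC transcripts of subgroup B the counts were 2 for knockdown in LacZ (24 with TMM), 1 for GCN5 against LacZ with siControl (10), 1 with siHsf1 (14) and 0 for the difference of effects (15); with all 92 ERCC transcripts they were 7, 2, 1 and 0. With Hsf1 knockdown in LacZ the signs of Pfkfb3 (-0.024 and -0.026 with subgroup B and with all ERCC), Hif1a (-0.015 and -0.022), Pfkfb2 (-0.0088 and -0.011), Egln2 (-0.15 and -0.15), Kdm4b (-0.075 and -0.073) and Wsb1 (-0.13 and -0.14) turned; between lines with siControl those of G6pc3 (-0.035 and -0.017) and, with subgroup B, Dusp1 (-0.0060) did. A turn was counted only where one of the values was called. Hsf1 in the GCN5 line was -0.93 and -0.95 with these scalings, no longer called. DESeq2, no filter on low counts and fits of only the groups compared kept each count of members called within 1.5 times. DESeq2 called 24, 0, 10, 13 and 15. No scaling moved a class median relative to all genes beyond the replicate spread. Scaling shifts all genes of a library alike, so these relative medians could hardly move and are no check of the scaling.

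Leaving out each library in turn gave 22 to 24 members called with knockdown in LacZ, 0 with knockdown in GCN5, 8 to 11 between lines with siControl, 9 to 15 between lines with siHsf1, where the 9 came without siHsf1 GCN5 replicate 3, and 11 to 18 for the difference. Gapdh ran from -0.44, without siHsf1 LacZ replicate 2, to 0.78 with knockdown in LacZ. Class medians relative to all genes lay between -0.029 and 0.15 for the enzymes between lines with siHsf1, between -0.19 and -0.039 for the hypoxia genes with knockdown in GCN5 and between -0.026 and 0.21 for their difference of effects. Same-numbered libraries hardly deviated together (r = -0.06 to 0.10), but such low values cannot exclude that the numbers pair the samples. The share of subgroup B spike-in was lowest in replicate 1 of every group, so the numbers carry some common order. Whether the samples are paired was therefore not settled. With the replicate number as a block and TMM scaling, 23, 0, 10, 13 and 15 members were called.

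Counts of members with a c-MYC peak held within 1.5 times except that 11, in place of 28, counted in the WT list when most of a peak had to lie in the window, which wide peaks cannot meet. Motif counts in 300 bases and the 224 alternatives for isozyme shares moved nothing beyond these limits. Depth in the GCN5 line and 3 libraries a group limit what small differences can show; Car9, Ankrd37 and Aldoc rest on few counts.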
